A study of Mus musculus with 18 samples.

Results

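The genes described here encode the parts of the hemidesmosome, the junction that ties an epithelial cell to its basement membrane, and chains of laminin-332, the basement membrane protein to which that junction binds. They are *Itga6*, *Itga3*, *Col17a1*, *Dst*, *Plec*, *Lama3*, *Lamb3* and *Cd151*, 8 of the 27179 genes in the deposited counts. They were taken by symbol, as a set chosen with earlier results of these data known, and all 8 passed the filter on low counts that 17989 genes passed. RNA was sequenced from 6 populations of sorted cells of untreated C57BL/6 mice, which the methods describe as young adult males, 3 libraries to a population, which makes 18. Basal stem cells (BSCs) were sorted from trachea as NGFR pos, and the NGFR neg cells of the same mice 1, 2 and 3 are called non-basal. All other cells came from the lungs of mice 4, 5 and 6. They were EpCAM pos CD104 pos CD24hi airway cells, which the labels describe as enriched in ciliated cells, EpCAM pos CD104 pos CD24lo airway cells, described as enriched in club cells, EpCAM pos CD104 lo alveolar cells and EpCAM neg cells. CD104 is the integrin β4 protein, the partner of the *Itga6* product, so the lung epithelial gates were set on a hemidesmosome protein and the *Itgb4* difference between them is no finding. Tracheal and lung cells differed in organ, animal, digestion and gate as well as in cell type, and these cannot be told apart.

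In a basal cell, the α6 and β4 chains pair into a receptor that grips laminin-332 outside the cell. Inside, β4 binds plectin, the product of *Plec*, and the epithelial form of BP230, made from *Dst*, and these link the junction to keratins 5 and 14. Collagen XVII, the product of *Col17a1*, spans the membrane beside the integrin, and the tetraspanin CD151 associates with both α6 and α3 integrins. Laminin-332 is a trimer that holds the products of *Lama3* and *Lamb3*, and the α3 integrin, which pairs with β1, binds it too. In the airway, hemidesmosomes are known from basal cells, which rest on the basement membrane of the tracheal epithelium. Alveolar epithelium also lies on a basement membrane, but its cells are not known for classical hemidesmosomes.

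In the GRCm38.p6 gene table of RefSeq, which shares its coordinates with mm10, *Itga6* (gene identifier 16403) lies at chr2:71786886-71858427 and *Itga3* (16400) at chr11:95044475-95076844. *Col17a1* (12821) lies at chr19:47646341-47692042 and *Cd151* (12476) at chr7:141467362-141471481. *Dst* (13518) spans chr1:33907888-34308662, and *Plec* (18810) spans chr15:76170974-76231378. *Lamb3* (16780) lies at chr1:193294353-193343878. The counts cover whole genes, so the isoforms of *Dst*, *Plec*, *Lama3* and *Itga6* were not separated. In the GENCODE M21 annotation, 7.04% of the exon bases of *Cd151*, 3.63% of those of *Dst*, 1.83% of those of *Lama3* and 1.13% of those of *Plec* overlap exons of another gene, and none of those of the other members do. Whether the counting used strand is not given in the sources used here, so reads in these shares may belong to either gene.

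RefSeq promoter windows of the same build were found for 5 of the 8 genes, and the 250 bases before an annotated transcript start are shown for 3 of them, the genes with the widest range of level (*Col17a1*), the narrowest (*Cd151*) and a laminin-332 chain (*Lamb3*, the first of its windows). Each runs 5′ to 3′ on the strand of the gene, and capitals mark CpG dinucleotides, which a promoter can hold in dense clusters. The *Col17a1* window (chr19:47692043-47692292, minus strand) held 2 CpG, the *Lamb3* window (chr1:193301744-193301993, plus strand) held 2 and the *Cd151* window (chr7:141467112-141467361, plus strand) held 12, against a median of 6 over the 32851 promoters of the table. The *Col17a1* and *Cd151* windows end where the gene begins, whereas the *Lamb3* window lies inside the gene as the table bounds it, before an internal start.
*Col17a1*: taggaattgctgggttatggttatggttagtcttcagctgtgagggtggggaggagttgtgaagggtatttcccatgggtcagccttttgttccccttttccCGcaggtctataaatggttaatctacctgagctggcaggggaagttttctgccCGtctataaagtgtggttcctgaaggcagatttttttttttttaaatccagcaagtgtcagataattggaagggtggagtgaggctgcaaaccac
*Lamb3*: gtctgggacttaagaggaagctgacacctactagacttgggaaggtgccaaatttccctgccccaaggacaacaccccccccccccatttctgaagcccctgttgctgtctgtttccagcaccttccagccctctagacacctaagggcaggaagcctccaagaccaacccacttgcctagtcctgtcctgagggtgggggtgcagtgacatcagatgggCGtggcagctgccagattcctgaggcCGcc
*Cd151*: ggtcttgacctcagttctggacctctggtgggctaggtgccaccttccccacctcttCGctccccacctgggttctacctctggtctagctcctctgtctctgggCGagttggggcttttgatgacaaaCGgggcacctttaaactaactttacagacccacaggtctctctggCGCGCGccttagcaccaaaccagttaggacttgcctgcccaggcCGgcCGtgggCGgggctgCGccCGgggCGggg
Among the windows not shown, the first of *Itga3* and the first of *Dst* each held 22 CpG. The letters TATAAA, searched on both strands, stood at 140 and 91 bases before the *Col17a1* start and in 12.4% of all promoters. The letters TGANTCA (AP-1) occurred in none of the members' windows and in 6.75% of all promoters. The letters GGAATG (TEAD) were found only in the second window of *Lamb3*, and in 12.6% of all promoters. A decamer of the p53 family, which includes p63, occurred in the first window of *Cd151* and in 7.13% of all promoters. These matches describe letters and not binding, which was not measured.

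Tracheal libraries held 29317215 to 32993621 counted reads and lung libraries 9811503 to 13208897, so low levels carry more counting error in lung. Levels are given in RPKM, reads scaled for the counted length of the gene and for library size with TMM factors, and the ± values are SD over 3 libraries. Differences are log2 fold changes from edgeR's quasi-likelihood test over all 17989 genes, with p-values adjusted by the Benjamini-Hochberg method and a call at an adjusted p under 0.05. The defining markers of each population were checked against its label. The summed level of *Krt5*, *Krt14*, *Trp63* and *Ngfr* was 4160 to 4335 CPM (the same scaling without gene length) in BSCs, 312 to 411 in non-basal cells, 121 to 217 in CD24lo cells, 12.1 to 17.3 in CD24hi cells, 6.40 to 7.60 in EpCAM-negative cells and 1.23 to 3.13 in alveolar cells. The club cell markers *Scgb1a1*, *Scgb3a2* and *Cyp2f2* summed to 245904 to 344371 CPM in CD24lo cells, 61820 to 68782 CPM in non-basal cells, 37732 to 49686 CPM in CD24hi cells and 14367 to 16533 CPM in BSCs, where *Cyp2f2* was at 12931 CPM on average. The ciliated cell markers *Foxj1*, *Dnah5* and *Ccdc39* summed to 2525 to 2706 CPM in CD24hi cells and to 213 to 451 CPM in CD24lo cells, so the CD24hi libraries held reads of both kinds. The endothelial markers *Pecam1*, *Cdh5* and *Kdr* summed to 373 to 670 CPM in CD24lo cells and 331 to 527 CPM in EpCAM-negative cells, which overlapped. They summed to 102 to 203 CPM in alveolar cells. The methods stain lung cells for CD45 and CD31, markers of leukocytes and endothelial cells, and identify alveolar cells as negative for both. The part of endothelial cells in the results was not tested. In sorted bulk samples, fewer cells of a type and less RNA per cell cannot be told apart. Replicates were separate mice, so p-values measure the spread between these animals. In 5 of the 6 populations 1 library stood apart, with a chi-square per degree of freedom of 19.5 to 34.9 to the others, which were 4.86 to 6.58 from each other. These were replicate 1 of BSCs, non-basal, CD24hi and CD24lo cells and replicate 2 of alveolar cells, and leaving out each in turn changed the call of 1 member in 1 comparison, *Cd151* in CD24hi against alveolar cells.

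**Figure D1:**
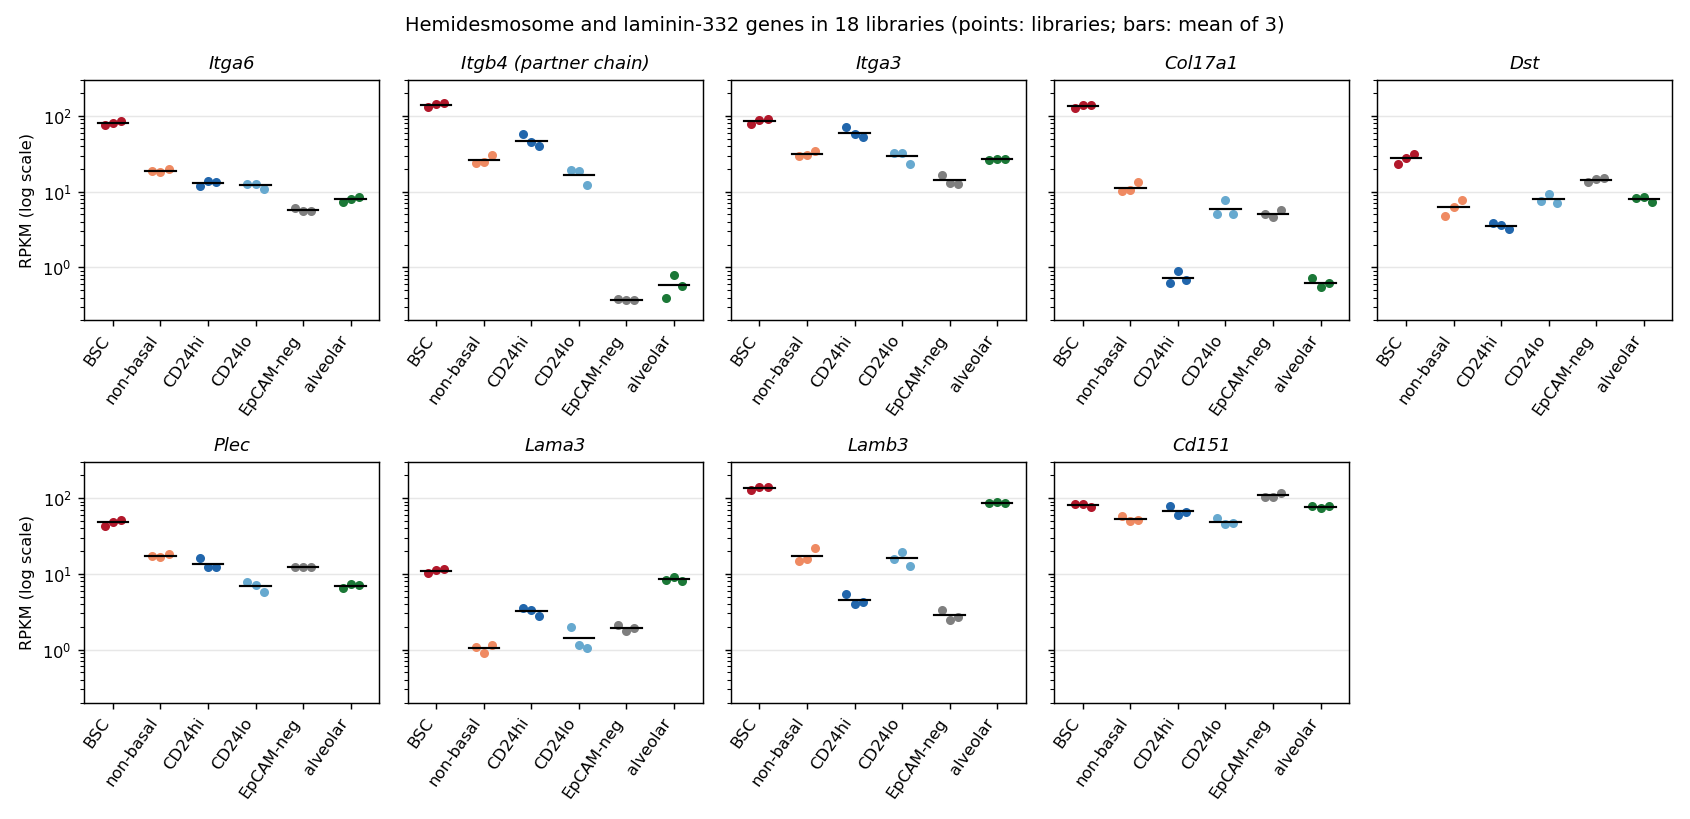
Level of the 8 genes and of the partner chain *Itgb4* in RPKM (vertical log axis) in each of 18 libraries, grouped by population along the horizontal axis, with a bar at the mean of 3. BSCs are highest for 7 of the 8 genes, *Lama3* and *Lamb3* are next highest in alveolar cells, and *Cd151* stays within 44.9 and 118 RPKM in all libraries.

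The integrin chains were examined first. *Itga6* was at 75.8, 79.5 and 84.4 RPKM in the BSCs of mice 1, 2 and 3 and at 18.6, 18.1 and 20.0 RPKM in their non-basal cells. In the lungs of mice 4, 5 and 6 it was at 12.0, 13.97 and 13.5 RPKM in CD24hi cells and at 12.6, 12.7 and 10.9 RPKM in CD24lo cells. It was lowest in alveolar cells, at 7.27, 7.94 and 8.55 RPKM, and in EpCAM-negative cells, at 6.00, 5.52 and 5.51 RPKM. Every BSC library thus lay above every other library, and the only neighbours in the order of the 6 populations that did not pass the test were CD24hi and CD24lo cells (log2 difference 0.12, adjusted p = 0.264). *Itgb4*, the chain that pairs with α6 in the hemidesmosome, was at 141 ± 7.87 RPKM in BSCs, 26.4 ± 3.57 in non-basal cells, 47.3 ± 8.83 in CD24hi cells and 16.8 ± 3.78 in CD24lo cells. It was at 0.588 ± 0.196 RPKM in alveolar cells and 0.374 ± 0.00359 RPKM in EpCAM-negative cells, with 28 to 53 reads a library in those 2 populations. *Itga6* therefore remained measurable at 5.5 RPKM or more in populations where *Itgb4* was under 1 RPKM.

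*Itga3*, which pairs with β1, kept a higher level outside the trachea. It was at 77.4, 88.1 and 90.0 RPKM in BSCs and at 29.6, 30.8 and 34.0 RPKM in non-basal cells of the same mice. CD24hi cells came close to BSCs, at 70.5, 57.4 and 52.5 RPKM, whereas CD24lo cells were at 32.8, 32.0 and 23.0 RPKM. Alveolar cells were at 26.1, 27.2 and 26.7 RPKM and EpCAM-negative cells at 16.8, 12.9 and 12.7 RPKM. BSCs and CD24hi cells did not overlap and differed by 0.50 on the log2 scale (SE 0.14, adjusted p = 0.00392). Non-basal, CD24lo and alveolar cells formed a middle level in which neither step passed the test (log2 differences of 0.10 and 0.14, adjusted p = 0.568 and 0.452). The β1 chain, *Itgb1*, was at 128 ± 3.51 RPKM in BSCs and 138 ± 1.47 RPKM in alveolar cells, and at 241 ± 16.9 RPKM in EpCAM-negative cells.

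Among the members, *Col17a1* had the widest range, 215-fold between the means of the highest and lowest population. It was at 128, 137 and 140.3 RPKM in BSCs and at 10.2, 10.4 and 13.4 RPKM in non-basal cells. CD24lo cells were at 5.02, 7.83 and 5.05 RPKM and EpCAM-negative cells at 5.06, 4.65 and 5.68 RPKM, and these populations overlapped (log2 difference 0.22, adjusted p = 0.255). CD24hi cells were at 0.626, 0.901 and 0.681 RPKM and alveolar cells at 0.714, 0.559 and 0.614 RPKM, from 33 to 66 reads a library. This lowest pair did not differ either (log2 difference 0.22, adjusted p = 0.415). The level in EpCAM-negative cells was 27.9 ± 2.81 CPM, above the 6.40 to 7.60 CPM of the basal markers *Krt5*, *Krt14*, *Trp63* and *Ngfr* summed. In CD24lo cells, where *Col17a1* was at 32.4 ± 8.77 CPM, those markers summed to 121 to 217 CPM, and their part in its level was not tested. Collagen VII, made from *Col7a1* and the core of the anchoring fibrils beneath the hemidesmosome, was at 27.7 ± 1.88 RPKM in BSCs and between 0.789 and 3.09 RPKM on average in the other 5 populations.

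The plakins, which link the junction to the cytoskeleton, differed from each other in lung. *Dst* was at 23.3, 27.8 and 31.1 RPKM in BSCs and at 4.72, 6.25 and 7.79 RPKM in non-basal cells. EpCAM-negative cells held the next highest level, 13.5, 14.6 and 15.02 RPKM, above CD24lo cells at 7.61, 9.26 and 7.07 RPKM, alveolar cells at 8.17, 8.41 and 7.28 RPKM and CD24hi cells at 3.84, 3.64 and 3.23 RPKM. The step from BSCs to EpCAM-negative cells was 0.93 on the log2 scale (SE 0.15, adjusted p = 3.48e-05), smaller than that to any other population, and CD24lo and alveolar cells overlapped. *Dst* also makes forms known from muscle and nerve, which the counts do not separate. *Plec* was at 43.0, 49.1 and 51.8 RPKM in BSCs and at 17.1, 16.5 and 18.5 RPKM in non-basal cells. It was at 16.1, 12.5 and 12.3 RPKM in CD24hi cells and at 12.3, 12.2 and 12.4 RPKM in EpCAM-negative cells, which overlapped. CD24lo cells, at 7.88, 7.04 and 5.82 RPKM, and alveolar cells, at 6.43, 7.43 and 7.18 RPKM, were lowest and overlapped as well.

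The laminin-332 chains departed from the junction genes in alveolar cells. *Lama3* (gene identifier 16774) lies at chr18:12333417-12583013 in the same build. *Lamb3* was at 127, 139 and 139 RPKM in BSCs and at 86.9, 89.2 and 85.7 RPKM in alveolar cells, far above the remaining 4 populations. Non-basal cells were at 14.8, 15.7 and 21.9 RPKM and CD24lo cells at 15.9, 19.6 and 12.6 RPKM, which overlapped (log2 difference 0.12, adjusted p = 0.559). CD24hi cells were at 5.40, 3.96 and 4.19 RPKM and EpCAM-negative cells at 3.37, 2.44 and 2.72 RPKM. *Lama3* was at 10.3, 11.3 and 11.6 RPKM in BSCs and at 8.29, 9.22 and 8.10 RPKM in alveolar cells. It was at 3.58, 3.30 and 2.75 RPKM in CD24hi cells and at 2.10, 1.76 and 1.94 RPKM in EpCAM-negative cells. CD24lo cells were at 2.01, 1.15 and 1.05 RPKM and non-basal cells at 1.08, 0.893 and 1.15 RPKM, which overlapped (log2 difference 0.44, adjusted p = 0.0514). The non-basal mean was the lowest, and *Lama3* was lower in these tracheal cells than in alveolar or EpCAM-negative cells. In alveolar cells the basal markers were at 1.23 to 3.13 CPM in sum, whereas *Lamb3* was at 354 ± 7.33 CPM. The alveolar type 1 markers *Ager*, *Hopx*, *Rtkn2* and *Aqp5* summed to 2169 to 2189 CPM in alveolar cells. They summed to 632 to 704 CPM in BSCs and 835 to 995 CPM in non-basal cells. Most of these tracheal sums was *Aqp5*, at 630 and 824 CPM on average, against 549 CPM in alveolar cells. *Ager* was at 2.43 CPM in BSCs, 1.39 CPM in non-basal cells and 1561 CPM in alveolar cells on average. The part of alveolar type 1 cells in the laminin levels was not tested.

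*Cd151* was the flattest member, with a 2.23-fold range between population means, and the only member for which BSCs were not highest. It was at 83.3, 84.3 and 76.3 RPKM in BSCs and at 57.4, 49.1 and 51.6 RPKM in non-basal cells. EpCAM-negative cells were highest, at 105, 104 and 118 RPKM, 0.42 above BSCs on the log2 scale (SE 0.10, adjusted p = 0.00160). Alveolar cells were at 78.0, 74.5 and 78.8 RPKM, CD24hi cells at 79.0, 59.98 and 65.8 RPKM and CD24lo cells at 54.1, 44.9 and 47.5 RPKM. Neither the step from BSCs to alveolar cells nor that from alveolar to CD24hi cells passed the test (adjusted p = 0.535 and 0.158), while BSCs were above CD24hi cells (0.25, SE 0.10, adjusted p = 0.0384). Without CD24hi replicate 1, its highest library there, *Cd151* was lower in CD24hi than in alveolar cells (-0.29, adjusted p = 0.0132).

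BSCs were then compared with the non-basal cells of the same mice. All 8 genes were higher in BSCs, against 21.9% of all genes tested that were higher and 26.2% that were lower. No member's libraries overlapped between the groups, but the share of all genes without overlap was not computed. The median log2 fold change of the members was 2.10, against -0.02 for all genes. *Col17a1* was 11.9-fold higher (log2 fold change 3.58, SE 0.17, adjusted p = 3.18e-11) and *Lama3* was 10.6-fold higher (3.41, SE 0.18, adjusted p = 1.24e-10). *Lamb3* followed at 7.73-fold (2.95, SE 0.17, adjusted p = 4.26e-10), *Dst* at 4.38-fold (2.13, SE 0.16, adjusted p = 7.48e-09) and *Itga6* at 4.22-fold (2.08, SE 0.09, adjusted p = 1.69e-11). *Plec* and *Itga3*, at 2.76-fold and 2.71-fold, and *Cd151*, at 1.54-fold (0.63, SE 0.10, adjusted p = 8.62e-05), differed least. Genes whose products act beside them were higher too, namely *Krt14* (18.5-fold), *Krt5* (12.8-fold), *Col7a1* (8.98-fold), *Itgb4* (5.34-fold) and *Itgb1* (1.86-fold).

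The level left in non-basal cells, as a share of the BSC level of the same mouse, ordered the genes. It was 7.61% to 9.55% over the 3 mice for *Col17a1*, 7.92% to 10.5% for *Lama3* and 11.3% to 15.7% for *Lamb3*. The basal markers ranged from 4.35% to 7.02% for *Krt14*, 6.58% to 8.80% for *Krt5*, 8.45% to 11.8% for *Ngfr*, the gene of the sorting marker, and 10.3% to 16.3% for *Trp63*. Within a mouse, *Lamb3* was above all 4 of these markers in 2 of the 3 mice and *Lama3* in 1, and *Col17a1* was below the highest marker in each. Whether these reads came from BSCs within the NGFR neg gate was not tested. *Dst* (20.3% to 25.0%) and *Itga6* (22.8% to 24.6%) lay above the highest share of any of these markers in every mouse. *Plec* (33.7% to 39.8%), *Itga3* (35.0% to 38.2%) and *Cd151* (58.3% to 68.9%) lay farther above it. Markers of mesothelium, *Msln*, *Upk3b* and *Wt1*, summed to 2594 to 2682 CPM in non-basal cells and 218 to 270.3 CPM in BSCs. Nearly all of that was *Msln*, at 2627 ± 47.8 CPM in non-basal cells, where *Upk3b* had 0 to 2 reads and *Wt1* 0 to 4 reads a library. The part of *Msln*-expressing cells in the comparison was not tested.

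**Figure D2:**
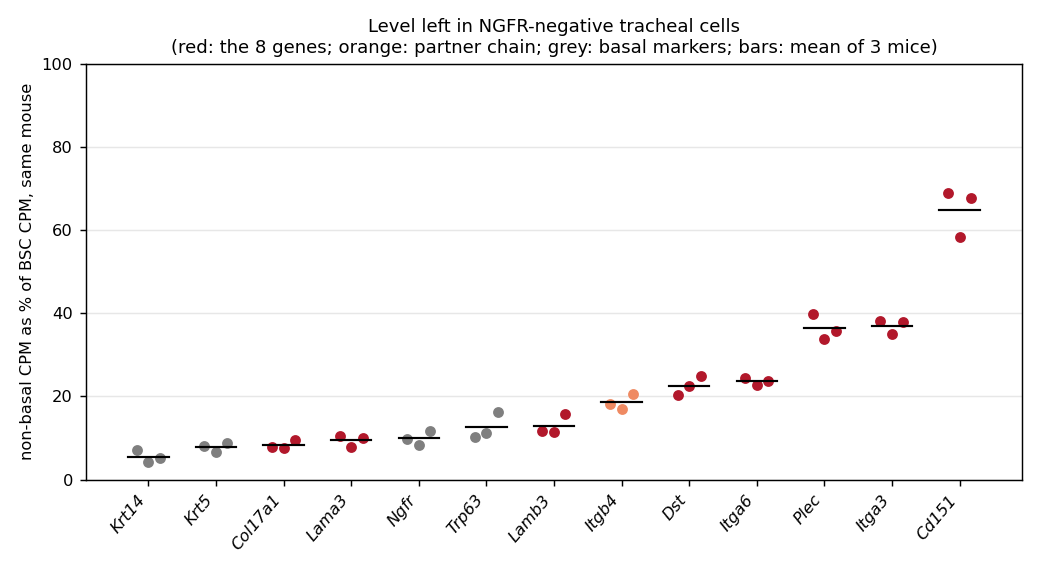
Level in non-basal cells as a percentage of the level in BSCs of the same mouse (vertical axis) for the 8 genes (red), *Itgb4* (orange) and 4 basal markers (grey), with a point for each of 3 mice and a bar at their mean. *Col17a1*, *Lama3* and *Lamb3* lie at 7.61% to 15.7% over the mice, where the basal markers span 4.35% to 16.3%, and *Cd151* is highest at 58.3% to 68.9%.

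BSCs and alveolar cells, which come from different mice and organs, differed in 6 of the 8 genes, all higher in BSCs, against 30.5% of all genes higher and 35.6% lower. The integrin and junction genes led. *Col17a1* was 214-fold higher (log2 fold change 7.74, SE 0.22, adjusted p = 5.46e-15), *Itga6* 10.1-fold (3.33, SE 0.10, adjusted p = 8.61e-15) and *Plec* 6.83-fold (2.77, SE 0.13, adjusted p = 3.16e-12). *Dst* and *Itga3* were 3.45-fold and 3.20-fold higher. With a trend with gene length removed, the log2 fold change of *Dst* went from 1.78 to 1.08, below that of *Itga3* (1.48), and that of *Plec* to 2.15, and these stayed called. The laminin chains differed little, *Lamb3* being 1.55-fold higher (0.63, SE 0.16, adjusted p = 0.00239) and *Lama3* 1.29-fold higher, which missed the threshold (0.37, 95% interval 0.03 to 0.71, adjusted p = 0.0523). The *Lama3* call depends on the setting, since the adjusted p was 0.0278 with DESeq2 and 0.00103 with library size alone, and the log2 fold change was -0.08 (adjusted p = 0.702) once the trend with gene length was removed. *Cd151* overlapped between the populations (0.08, 95% interval -0.14 to 0.30, adjusted p = 0.535). Of the partner genes, *Itgb4* was 239.8-fold higher in BSCs, which the CD104 lo gate of the alveolar cells bears on, *Col7a1* was 10.2-fold higher, and *Itgb1* had a log2 difference of -0.11 (adjusted p = 0.337).

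Against CD24lo airway cells, all 8 genes were higher in BSCs, with a median log2 fold change of 2.76, where 28.9% of all genes were higher and 34.8% lower. *Col17a1* differed most (4.50, SE 0.18, adjusted p = 1.23e-12), and *Lamb3* (3.07), *Lama3* (2.97), *Plec* (2.79) and *Itga6* (2.73) followed. *Cd151* differed least (0.74, SE 0.11, adjusted p = 9.84e-06). The laminin chains, which were close in BSCs and alveolar cells, thus stood 7.82-fold (*Lama3*) and 8.41-fold (*Lamb3*) above these airway cells, which came from the same lungs as the alveolar cells. The comparisons of BSCs share their libraries and are not independent of each other.

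**Figure D3:**
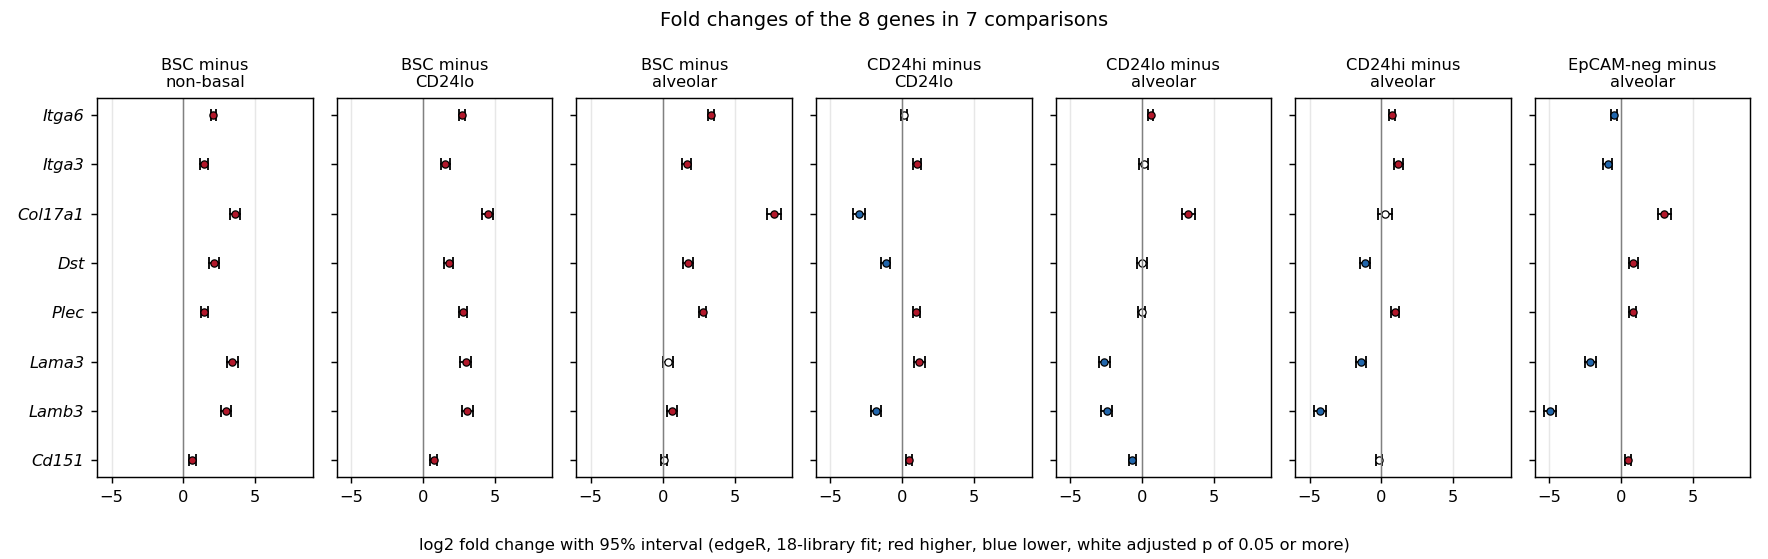
Log2 fold change of each of the 8 genes (rows) in 7 comparisons (panels), with 95% intervals; red points were higher, blue points lower and white points not called at an adjusted p under 0.05. All 8 points are red for BSCs minus non-basal and BSCs minus CD24lo cells, 6 are red for BSCs minus alveolar cells, and in lung the genes divide, with *Lamb3* at -4.27 in CD24hi cells and -4.94 in EpCAM-negative cells relative to alveolar cells.

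Within the lungs of mice 4, 5 and 6, CD24hi and CD24lo airway cells divided the genes. Of the 8, 4 were higher in CD24hi cells, 3 were lower and 1 was not called, against 27.8% and 27.2% of all genes. *Lama3* (log2 fold change 1.18, SE 0.18, adjusted p = 2.45e-05), *Itga3* (1.04, SE 0.14, adjusted p = 7.27e-06), *Plec* (0.98, SE 0.12, adjusted p = 2.70e-06) and *Cd151* (0.48, SE 0.11, adjusted p = 0.000862) were higher. *Col17a1* was 8.09-fold lower (-3.02, SE 0.19, adjusted p = 1.24e-09), *Lamb3* 3.55-fold lower (-1.83, SE 0.18, adjusted p = 1.02e-07) and *Dst* 2.24-fold lower (-1.16, SE 0.16, adjusted p = 6.07e-06). These laminin-332 chains thus moved in opposite directions, *Lama3* up and *Lamb3* down, and so did the plakins. *Itgb4* was 2.82-fold higher in CD24hi cells. *Krt5*, at 3.59 ± 0.164 RPKM in CD24hi and 42.8 ± 15.04 RPKM in CD24lo cells, was lower in CD24hi cells as *Col17a1* was, and the part of basal cells in these differences was not tested.

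Compared with alveolar cells of the same mice, CD24lo cells were higher in 2 genes and lower in 3, against 24.2% of all genes in each direction. *Col17a1* was 9.46-fold higher (3.24, SE 0.20, adjusted p = 3.78e-10) and *Itga6* 1.52-fold higher (0.61, SE 0.09, adjusted p = 2.91e-05). *Lama3* was 6.04-fold lower (-2.59, SE 0.18, adjusted p = 2.10e-09), *Lamb3* 5.44-fold lower (-2.44, SE 0.17, adjusted p = 2.12e-09) and *Cd151* 1.58-fold lower (-0.66, SE 0.11, adjusted p = 5.30e-05). The 95% intervals of the other 3 were -0.16 to 0.44 for *Itga3*, -0.32 to 0.33 for *Dst* and -0.28 to 0.24 for *Plec*. Alveolar type 2 markers (*Sftpc*, *Sftpb*, *Lamp3* and *Abca3*) summed to 6458 to 8253 CPM in CD24lo cells and 150229 to 166806 CPM in alveolar cells.

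CD24hi cells were higher than alveolar cells in 3 genes and lower in 3, against 30.5% and 31.4% of all genes. *Itga3* (2.26-fold), *Plec* (1.94-fold) and *Itga6* (1.66-fold) were higher, the last with a log2 fold change of 0.73 (SE 0.09, adjusted p = 1.75e-06). *Lamb3* was 19.3-fold lower (-4.27, SE 0.19, adjusted p = 2.63e-12), *Lama3* 2.66-fold lower (-1.41, SE 0.17, adjusted p = 9.79e-07) and *Dst* 2.23-fold lower (-1.16, SE 0.16, adjusted p = 4.47e-06). Of the junction genes, *Col17a1* was near its lowest level in both populations, with a 95% interval of -0.26 to 0.71.

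In EpCAM-negative cells, 4 of the 8 genes were higher and 4 lower than in alveolar cells of the same mice, against 32.7% and 29.2% of all genes. *Col17a1* (8.13-fold; 3.02, SE 0.20, adjusted p = 3.55e-10), *Dst* (1.81-fold; 0.85, SE 0.15, adjusted p = 0.000116), *Plec* (1.76-fold) and *Cd151* (1.41-fold) were higher. *Lamb3* was 30.7-fold lower (-4.94, SE 0.20, adjusted p = 3.74e-13), *Lama3* 4.42-fold lower (-2.14, SE 0.18, adjusted p = 6.55e-09), *Itga3* 1.89-fold lower and *Itga6* 1.40-fold lower (-0.48, SE 0.09, adjusted p = 0.000250). The 5 fibroblast markers (*Col1a1*, *Col1a2*, *Col3a1*, *Pdgfra* and *Dcn*) summed to 26357 to 27817 CPM in these libraries and 666 to 1103 CPM in alveolar cells. Of the basal markers, *Krt5* had 5 to 6 reads and *Krt14* 0 to 3 reads in an EpCAM-negative library, *Ngfr* had 19 to 26 and *Trp63* 50 to 58. *Trp63* was at 4.39 ± 0.516 CPM there and 0.617 ± 0.155 CPM in alveolar cells. The smooth muscle and pericyte markers *Acta2*, *Myh11*, *Cspg4* and *Pdgfrb* summed to 2731 to 2841 CPM in EpCAM-negative cells and 69.5 to 106 CPM in alveolar cells. The part of basal cells, fibroblasts and muscle cells in these differences was not tested. The 3 comparisons with alveolar cells share those libraries.

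Ratios of transcripts within a library do not depend on the scaling between libraries, although those of *Dst*, *Plec*, *Lama3* and *Itga6* depend on the isoforms present through the gene length. The RPKM ratio of *Itga6* to *Itga3* was 0.940 ± 0.0387 in BSCs, 0.602 ± 0.0236 in non-basal cells and 0.223 ± 0.0471 in CD24hi cells, so BSCs alone came close to equal levels. The ratio of *Itgb4* to *Itga6* was 1.76 ± 0.0364 in BSCs, 1.39 ± 0.117 in non-basal cells, 3.65 ± 0.977 in CD24hi cells and 1.38 ± 0.212 in CD24lo cells, and only 0.0738 ± 0.0230 in alveolar and 0.0660 ± 0.00270 in EpCAM-negative cells. *Itga6* was therefore above *Itgb4* in the latter populations and below it in the other 4. Since the lung epithelial gates were set on the *Itgb4* product, the difference in this ratio between them is no finding. The ratio of *Col17a1* to *Itga6* was 1.69 ± 0.0320 in BSCs, 0.906 ± 0.109 in EpCAM-negative cells and 0.0557 ± 0.00763 in CD24hi cells.

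The plakin and laminin ratios separated other populations. *Dst* to *Plec* was 0.570 ± 0.0293 in BSCs, 0.359 ± 0.0744 in non-basal and 0.265 ± 0.0268 in CD24hi cells, but 1.17 ± 0.1799 in CD24lo, 1.17 ± 0.0579 in EpCAM-negative and 1.14 ± 0.128 in alveolar cells. *Lama3* to *Lamb3* was 0.0818 ± 0.00116 in BSCs, 0.0607 ± 0.0108 in non-basal, 0.0894 ± 0.0345 in CD24lo and 0.0977 ± 0.00483 in alveolar cells. It was 0.717 ± 0.10 in CD24hi and 0.685 ± 0.0545 in EpCAM-negative cells, the populations with least *Lamb3*. All 5 ratios had no overlap between BSCs and non-basal cells, with an exact two-sided permutation p of 0.1 for each, the smallest that 3 libraries against 3 allow. The alveolar gate was set on the *Itgb4* product, so *Itgb4* to *Itga6* was left out of the comparisons with alveolar cells. The other 4 ratios had no overlap between BSCs and alveolar cells (exact p = 0.1 for each). Between CD24lo and alveolar cells, *Itga6* to *Itga3* and *Col17a1* to *Itga6* had none (exact p = 0.1), whereas *Lama3* to *Lamb3* (exact p = 0.7) and *Dst* to *Plec* (exact p = 0.9) overlapped.

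**Figure D4:**
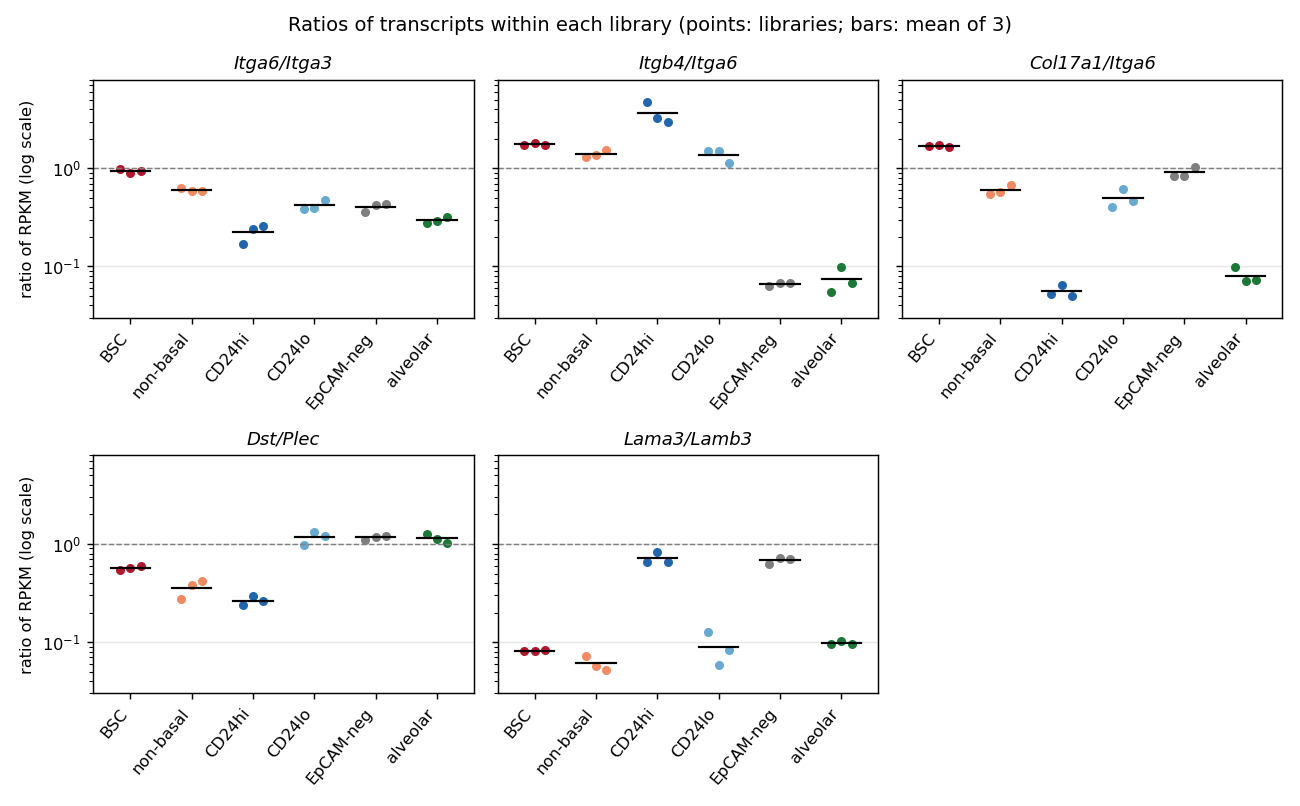
Ratio of RPKM of pairs of transcripts within each of 18 libraries (vertical log axis), grouped by population, with a bar at the mean of 3 and a dashed line at equal levels. *Itgb4* to *Itga6* is 0.0738 on average in alveolar cells, which were gated as CD104 lo, and 0.0660 in EpCAM-negative cells. *Lama3* to *Lamb3* rises to 0.717 and 0.685 in CD24hi and EpCAM-negative cells.

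Other genes of the same families were compared from lists, beside the share of all genes called: 21.9% higher and 26.2% lower in BSCs than in non-basal cells, and 30.5% and 35.6% against alveolar cells. Of 8 further laminin chains, BSCs had 5 (62.5%) at a higher and 2 (25%) at a lower level than non-basal cells, and their median was 0.64 on the log2 scale where that of all genes was -0.02. Against alveolar cells BSCs were higher for 2 (25%), which is near the share of all genes, and lower for 4 (50%). *Lama2* was at 0.0938 CPM in BSCs, 39.3 CPM in alveolar cells and 854 CPM in EpCAM-negative cells on average. The fibroblast markers summed to 333 to 339, 666 to 1103 and 26357 to 27817 CPM in these populations. Of them, *Dcn* was higher in BSCs than in alveolar cells (335 and 39.8 CPM on average), and the rest were lower. The smooth muscle and pericyte markers summed to 3.61 to 5.05, 69.5 to 106 and 2731 to 2841 CPM. There *Cspg4* was higher in BSCs than in alveolar cells (3.55 and 1.94 CPM on average), and the rest were lower. The part of these cells in the laminin differences was not tested. *Lama5*, the α chain of the common epithelial laminins, was at 57.9 RPKM in BSCs and 32.9 RPKM in alveolar cells on average. In EpCAM-negative cells, 7 of the 8 were higher than in alveolar cells, where 32.7% of all genes were, led by *Lamc3* (log2 fold change 4.97) and *Lama2* (4.44), and *Lama5* alone was lower (-1.52), as *Lama3* and *Lamb3* were. Of 5 further plakins, all were higher in BSCs than in non-basal cells, led by *Eppk1* (2.11) and *Dsp* (1.52), the desmosome plakin. Against alveolar cells 4 were higher in BSCs, led by *Evpl* (4.20) and *Eppk1* (3.79), and *Macf1*, the close relative of *Dst*, was lower (-1.32). *Macf1* was also the only one of the 5 that was higher in EpCAM-negative than in alveolar cells (2.53).

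Of 14 further integrin chains, 7 (50%) were higher in BSCs than in non-basal cells, where 21.9% of all genes were, and 2 lower, with *Itga2* (2.48) and *Itga5* (1.84) at the top and *Itga4* (-1.31) at the bottom. Relative to alveolar cells, BSCs had 5 higher (35.7%, near the 30.5% of all genes) and 7 lower, from *Itgb8* (1.97) to *Itga8* (-8.50), which was at 0.327 CPM in BSCs, 121 CPM in alveolar cells and 1267 CPM in EpCAM-negative cells on average. The endothelial markers (0.359 to 0.540 CPM in BSCs, 102 to 203 CPM in alveolar cells) and the smooth muscle and pericyte markers (3.61 to 5.05 and 69.5 to 106 CPM) moved with it. So did the fibroblast markers, at 333 to 339 CPM in BSCs, 666 to 1103 CPM in alveolar cells and 26357 to 27817 CPM in EpCAM-negative cells. The part of these cell types was not tested. Among 12 further tetraspanins the BSC level exceeded the non-basal level in 3 (25%, near the 21.9% of all genes) and was below it in 6 (50%, where 26.2% of all genes were), with *Tspan15* (2.01) and *Cd81* (1.32) highest and *Tspan13* (-2.39) lowest. *Cd9*, a tetraspanin found in most epithelia, was at 508 RPKM in BSCs and 530 RPKM in non-basal cells on average and was not called (-0.06).

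The genes whose log2 CPM followed each member most closely over the 18 libraries were taken from the 10582 genes that averaged 10 CPM or more. They were *Unc5a* (Pearson r = 0.99), *Cdh3* and *Nfatc2* for *Col17a1*, and *Sh3bp1* (0.97), *Fat1* and *Ajuba* for *Itga6*. For *Itga3* they were *Jag2* (0.98), *Tnpo2* and *Sh3bgrl3*, for *Dst* *Ctdspl* (0.98), *Amotl1* and *Ntf3*, and for *Plec* *Slc6a6* (0.99) and *Nup188*. *Lamb3* was closest to *Marcksl1* (0.99) and *Pm20d1*, *Lama3* to *Cdc42bpg* (0.93), *Sox4* and *Bcam*, and *Cd151* to *Slc38a7* (0.95), *S100a10* and *Gpc1*. No member appeared in the list of another. Between members, r ran from -0.21 for *Itga3* and *Cd151* to 0.85 for *Itga6* and *Plec*. These values describe 18 libraries that share organs, animals and depth within their groups, and no test was made.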

How the data were processed

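RNA-seq was performed on 6 sorted mouse populations (18 libraries, 100 bp single-end reads). Per the labels, bcl2fastq 1.8.4, featureCounts and mm10 were used. Per the methods, the authors used Rsubread for alignment and an Entrez gene annotation. What they deposited are raw counts for each gene, not normalized, beside its length. The combined table repeats those of the single libraries and was left out. Symbols from RefSeq's GRCm38.p6 table matched 25275 of 27179 identifiers.

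The test was edgeR 4.0.16's quasi-likelihood test (R 4.3.3) with TMM factors, on genes above 0.2 CPM in 3 libraries or more. A single fit of the 18 libraries had a mean for each population. RPKM and CPM were computed here from the counts. In simulated data for BSCs against non-basal cells (17624 genes), 56 of 98 genes changed 2-fold and 88 of 97 changed 4-fold were called, with 9 false calls. Only 195 genes were changed there, whereas 3948 were called higher and 4720 lower in the data, so these rates need not hold for the data. The members and gene lists were chosen with earlier results of these data known. All 8 members are named. Other lists are given by counts, with partner genes and the highest and lowest fold changes, and some further levels chosen after values were seen. For each member the 3 genes most alike are named. Results of some genes that these rules take in are not reported here.

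Libraries of one number come from one mouse by the labels, within trachea and within lung. Deviations from the group means correlated by 0.117 to 0.336 between BSCs and non-basal cells and by 0.044 to 0.278 between airway populations, each highest for replicate 1. Between alveolar cells and the other lung populations of the same mice, the correlations were -0.059 to 0.093. The lowest chi-square per degree of freedom between replicates was 3.23, so none agreed within counting noise. Alternatives were DESeq2 1.42.0, limma 3.58.1 (voom), RLE factors, library size, other filters, a correction for gene length, thinning, a replicate block and leaving out each library. The order of levels under other scalings was an alternative added after seeing the data. Protein sequences were not used here.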

Additional observations from a re-analysis of the deposited data

How the results depend on the processing

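The counts of members called in each direction stayed within 1.5 times their main values in every alternative run. Over the orders of the 8 genes, 25 steps between neighbouring populations passed the test, and 24 to 28 did with RLE factors, library size alone or a library left out. With the replicate block (only the libraries compared, mouse as a term), 8 members were higher in BSCs than in non-basal cells, as without it, and over all genes 11199 were called with the block and 10119 without it in the same libraries. Against alveolar cells, the block gave 7 members higher in BSCs in place of 6, since *Lama3* passed at a log2 fold change of 0.43 (adjusted p = 9.77e-05), as it did in those libraries without the block (0.43, adjusted p = 0.000219). These mice are not shared between the organs, so there the block only pairs numbers. It changed no other member's call. *Lama3* also passed with library size alone (0.78, adjusted p = 0.00103), RLE factors (adjusted p = 0.0334), no filter (0.0457), voom (0.0113) and DESeq2 (0.0278), and reversed to -0.081 with the length trend removed, which put alveolar cells above BSCs. The length trend also took *Dst* in that comparison from 1.78 to 1.08 and *Plec* from 2.77 to 2.15. With library size alone the all-gene median log2 fold change became 0.31 for BSCs against non-basal cells and 0.29 against alveolar cells, and that of the members to 2.45 and 2.13. It turned *Cd151* in CD24hi against alveolar cells from -0.18 to 0.14, and 3 values beside *Lama3* passed with it, so that against alveolar cells BSCs were higher in 8 members: *Cd151* in BSCs against alveolar cells (0.48), *Itga6* in CD24hi against CD24lo cells (0.41) and *Col17a1* in CD24hi against alveolar cells (0.54). *Cd151* passed as lower in CD24hi than in alveolar cells without CD24hi replicate 1 (-0.29, adjusted p = 0.0132 by edgeR's test) and with the length trend removed (-0.23, adjusted p = 0.0403). Between CD24lo and alveolar cells, 2 values near 0 changed sign. *Plec* went from -0.02 to 0.015 (library size), 0.012 (thinned), 0.00026 (DESeq2), 0.032 (only the libraries compared) and 0.025 (replicate block), and ranged from -0.124 to 0.0973 without a CD24lo or alveolar replicate. *Dst* went from 0.01 to -0.28 (length trend), -0.0011 (voom) and -0.0011 (voom with mouse as a replicate block), and ranged from -0.1001 to 0.0932 without a replicate. None of these reversed values passed the test, and the cause was not tested. Depth limits mainly *Col17a1* and *Itgb4* in lung, at 28 to 66 reads a library where lowest.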

Other observations

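The rest of the basement membrane was compared as a list of 11 genes. Of these, 9 (81.8%) were higher in BSCs than in non-basal cells, where 21.9% of all genes were, led by *Col18a1* (log2 fold change 2.66) and *Hspg2* (2.11), the perlecan gene. *Nid1*, which encodes a linker of laminin and collagen IV, was lower (-2.58). Its reads varied from 23 to 136 between non-basal libraries. Of the fibroblast markers, *Col3a1* was at 0.0940 CPM in BSCs and 15.6 CPM in non-basal cells, whereas *Dcn* was at 335 and 66.5 CPM. The part of fibroblasts was not tested. Against alveolar cells 3 of the 11 (27.3%, near the 30.5% of all genes) were higher in BSCs, *Col4a6* (4.28), *Agrn* (2.24) and *Col4a5* (0.78), and 8 (72.7%, where 35.6% of all genes were) were lower, with *Col4a1* (-6.79) and *Nid1* (-6.74) at the bottom. *Col4a1* was at 0.857 RPKM in BSCs, 95.1 RPKM in alveolar cells and 209 RPKM in EpCAM-negative cells on average. *Col4a2* was at 81.4 RPKM in alveolar libraries, and *Col4a5* and *Col4a6* were at 20.9 and 26.1 RPKM in BSCs. Endothelial markers summed to 0.359 to 0.540 CPM in BSCs, 102 to 203 CPM in alveolar cells and 331 to 527 CPM in EpCAM-negative cells, and smooth muscle and pericyte markers to 3.61 to 5.05, 69.5 to 106 and 2731 to 2841 CPM. They moved with *Col4a1* and *Nid1*, as did the fibroblast markers (333 to 339, 666 to 1103 and 26357 to 27817 CPM). The methods give the alveolar gate as CD31 neg. The part of these cell types in the levels was not tested. *Col4a1* and *Col4a2*, and *Col4a5* and *Col4a6*, are neighbours in head-to-head pairs, and *Col4a3* (-3.93) and *Col4a4* (-3.56), another such pair, were also lower in BSCs than in alveolar cells.

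Proteases that can cut these proteins were compared as a list of 5. *Adam9*, *Adam10* and *Adam17* encode enzymes that can shed collagen XVII from the cell surface, and *Bmp1* and *Mmp14* encode enzymes that can process laminin-332 chains. All 5 were lower in CD24hi than in CD24lo cells, where 27.2% of all genes were, with log2 fold changes from -0.84 for *Bmp1* to -0.29 for *Adam17*. Between BSCs and non-basal cells *Bmp1* (1.81) and *Mmp14* (0.82) were higher in BSCs, *Adam9* was lower (-0.67), and *Adam10* and *Adam17* were not called. *Bmp1* was at 64.0 RPKM in alveolar cells, 54.2 in EpCAM-negative cells and 11.7 in BSCs on average.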
